A study of Mus musculus with 10 samples.

Results

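The 4 arrays described here set against each other the incomplete forms of a regulatory T cell (Treg). The sample titles give 2 arrays as Foxp3(-)epigenetics(+) T cells and 2 as Foxp3 transduced epigenetics(-) T cells, and the members were chosen by those titles, 4 of the 10 arrays of the series. All 45101 probe sets of each array were read. The cells in every group were CD4+ splenocytes sorted by GFP, labelled as DEREG on Balb/c, stimulated with anti-CD3/CD28, infected with the retrovirus pGCSamIN and sorted again for its NGFR marker before RNA was taken. GFP+ cells that received no Foxp3 came from animals abbreviated D_S, read here as DEREG/Scurfy, and are called scurfy mock. GFP- cells from DEREG mice, given the Foxp3 virus by their label, are called Tconv Foxp3. The other 3 groups, each of 2 arrays, were GFP+ DEREG cells with empty vector (Treg mock), GFP- DEREG cells with empty vector (Tconv mock) and GFP+ DEREG/Scurfy cells with the Foxp3 virus (scurfy Foxp3). The question the labels pose is which genes go with the starting state of a Treg when functional Foxp3 is missing, and which go with Foxp3 given to a cell without that state.

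Foxp3 is the forkhead transcription factor that defines Treg cells, and scurfy mice carry a frameshift in it, so their cells can transcribe the gene without making the working protein. DEREG mice carry GFP under the Foxp3 promoter, so GFP+ cells of a scurfy animal are cells that switched the locus on. Treg development also lays down demethylated DNA at Foxp3, Ctla4, Ikzf2, Ikzf4, Il2ra and Tnfrsf18, a pattern described as forming independently of Foxp3 protein. These models have limits that bear on every value below. Starting cell, the scurfy genotype and the virus all differ between scurfy mock and Tconv Foxp3, so their parts in a difference cannot be told apart in that comparison alone. Separate animals or cultures are not named for the replicates, and p-values therefore cover array-to-array spread only. Sorted populations were measured in bulk, where fewer cells of a type and less RNA per cell cannot be told apart.

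The labels were checked before the comparison. Foxp3 was 1188 and 1114 intensity units on the scurfy mock arrays and 18.0 and 18.9 on the Tconv Foxp3 arrays, against 53.9 and 35.9 on Tconv mock. Thus the arrays labelled as Foxp3-transduced did not show more signal at the Foxp3 probe set than cells with empty vector. The difference of Tconv Foxp3 from Tconv mock was -0.80 (adjusted p = 0.31, limma). Where this probe set lies relative to the transduced sequence is not given in the sources used here, so it does not check the transduction, and "Tconv Foxp3" stands for the label throughout. Foxp3 in scurfy mock cells goes with the gate, since GFP reports the same promoter. The T cell identity held in both groups: Cd3e was 3693 and 3702 in scurfy mock and 3490 and 4070 in Tconv Foxp3, and Cd4 was 3719 and 3868 against 2292 and 2570.

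The replicates were not equally close. Medians of the 4 arrays were 28.5 and 24.1 for scurfy mock and 24.3 and 24.1 for Tconv Foxp3, and the 3'/5' ratio of Gapdh was between 1.75 and 1.85. Across 11321 genes, which are not independent replicates, scurfy mock arrays correlated at 0.920 and Tconv Foxp3 arrays at 0.975. Scurfy mock array 2 was closer to scurfy Foxp3 array 1 (0.974) than to its own replicate. Between the scurfy mock arrays 1603 genes (14.2%) differed by over 1 log2 unit, and between the Tconv Foxp3 arrays 492 (4.35%) did. Results are therefore given with and without single arrays for many of the genes and lists. A call printed below without that check should not be read as kept in every fit.

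At an adjusted p under 0.05 (limma on log2(intensity + 16), Benjamini-Hochberg over all genes), 189 of 11321 genes differed (1.67%). Of these 122 (1.08%) were higher and 67 (0.592%) lower in scurfy mock. The median of all genes was -0.04, and the called differences were between 1.31 and 6.22 log2 units in size. In all 189 the arrays of the groups did not overlap, which was also so for 52% of all genes, 22.7% with scurfy mock higher and 29.3% with scurfy mock lower. At an unadjusted p under 0.05 there were 1972 genes (17.4%). The count depended on each of the 4 arrays. Dropping scurfy mock array 1 gave 54 calls and dropping its replicate gave 428, while dropping Tconv Foxp3 array 1 gave 19 and array 2 gave 7. With a pseudocount of 64 the split was 132 higher and 118 lower.

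**Figure D1:**
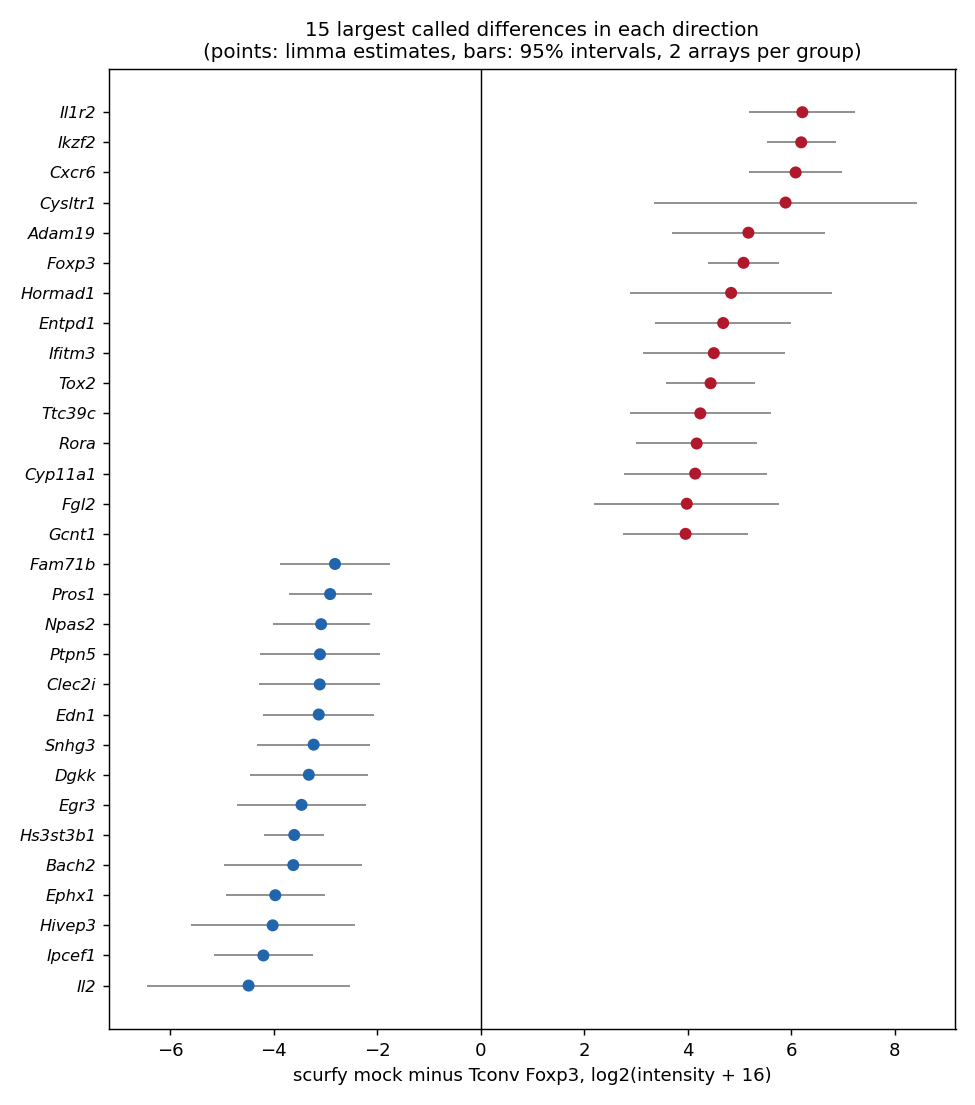
Log2 differences (scurfy mock minus Tconv Foxp3, intensity + 16) of the 15 largest called genes in each direction, as limma estimates (points) with 95% intervals (bars), 2 arrays per group. The higher side reaches 6.22 (Il1r2) and the lower side -4.49 (Il2), and Cysltr1 and Il2 have the widest intervals.

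Transcription factors of the Treg lineage were among the genes that separated the states most. Ikzf2, which encodes Helios, was 3061 and 2303 in scurfy mock and 16.9 and 24.4 in Tconv Foxp3. The scurfy mock arrays thus stood at the level of Treg mock (2261 and 3341), while Tconv Foxp3 lay beside Tconv mock (10.2 and 9.03). The difference was 6.19 (SE 0.30, adjusted p = 6.2e-05, limma), a 73.3-fold difference on the scale with 16 added. Ikzf4, which encodes the Foxp3 partner Eos, was 3294 and 3314 in scurfy mock and 523 and 480 in Tconv Foxp3. Neither group overlapped the other, and Treg mock (2742 and 4028) again sat with scurfy mock (difference 2.68, SE 0.29, adjusted p = 0.0054). Rora, a nuclear receptor found in tissue Treg and Th17 cells, was 1873 and 792 against 46.0 and 59.4 (4.17, SE 0.52, adjusted p = 0.0098).

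Maf followed another pattern over the groups. This activator of Il10 read 6994 and 5045 in scurfy mock and 1142 and 190 in Tconv Foxp3 (3.61, SE 0.66, adjusted p = 0.033). Here Tconv mock (5217 and 3427) and Treg mock (5078 and 5137) were also high, so Tconv Foxp3 was the low group among all 5. Id2, an inhibitor of E proteins, was 3008 and 2510 against 905 and 961 (1.54, SE 0.31, adjusted p = 0.044). Bach2, a repressor that holds T cells back from effector fates, ran the other way at 49.1 and 212 in scurfy mock and 1039 and 2120 in Tconv Foxp3 (-3.62, SE 0.59, adjusted p = 0.023). For Bach2, Treg mock (1018 and 674) was nearer to Tconv Foxp3, and scurfy mock was below Tconv mock (293 and 335). Of the 10 fits that left out an array, Id2 was called in 2 (adjusted p up to 0.301), Maf in 6 (up to 0.143) and Bach2 in 7 (up to 0.217).

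Of 28 Treg-related transcription factors measured, 6 were higher (Foxp3, Ikzf2, Ikzf4, Rora, Maf and Id2), 1 was lower (Bach2) and 21 did not pass. Their median was 0.24, beside -0.04 for all genes. For this list and those below, the background was 1.08% of all genes called higher and 0.592% called lower. An unadjusted p under 0.05 (limma) was found in 17.4% of all genes. The list count was 4 without scurfy mock array 1, 6 without array 2, and 3 and 2 without Tconv Foxp3 arrays 1 and 2. Foxp3 and Ikzf2 kept their calls whichever of the 10 arrays was left out. Among the 6 listed genes with Treg-specific demethylation, Foxp3, Ikzf2, Ikzf4 and Ctla4 were higher and all 6 differences were positive, with a median of 2.32. Foxp3, which is in both lists, was set apart beforehand by the sort on GFP from its promoter. The exceptions to a call were Il2ra and Tnfrsf18. The calls in this list numbered 3 without either scurfy mock array and 2 without either Tconv Foxp3 array.

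**Figure D2:**
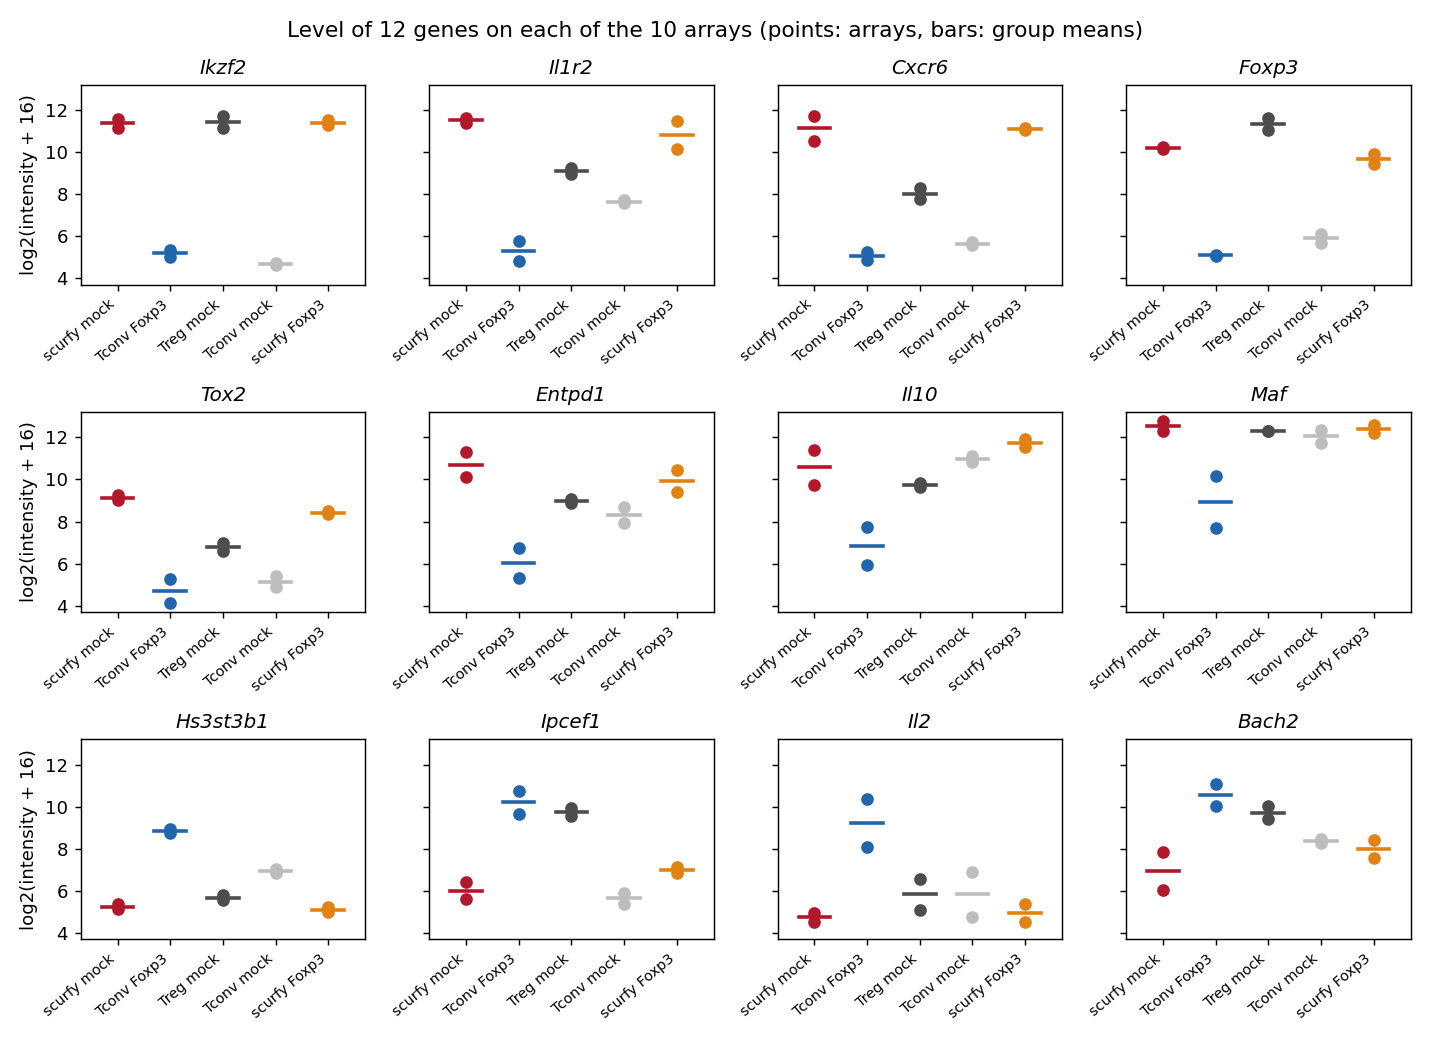
Level of 12 genes, log2(intensity + 16), on each of the 10 arrays, with points for arrays and bars for the means of 2 arrays, in 5 groups. Ikzf2 is high in the 3 groups sorted as GFP+, Ipcef1 is high in Tconv Foxp3 and Treg mock, and Il10, Maf and Entpd1 are lowest in Tconv Foxp3.

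Among surface and effector molecules of Treg, 7 were higher in scurfy mock and the rest did not pass. Il2ra, the high-affinity IL-2 receptor chain CD25, was 7902 and 7962 in scurfy mock and 6657 and 5518 in Tconv Foxp3 (0.39, SE 0.24, adjusted p = 0.46, limma). Tnfrsf18, the costimulatory receptor GITR, overlapped at 4347 and 5361 against 4403 and 3352 (0.33, SE 0.33, adjusted p = 0.67). These well-known Treg markers were bright on all 10 arrays, Tconv mock included. Ctla4, the inhibitory receptor for CD80 and CD86, was 4592 and 4502 against 1676 and 804 (1.95, SE 0.40, adjusted p = 0.048). Icos, a costimulatory receptor, was 7824 and 6105 against 2011 and 2626 (1.58, SE 0.28, adjusted p = 0.028). For both genes Tconv mock lay between the compared groups. Icos was called in 5 of the 10 fits that left out an array, with adjusted p up to 0.193.

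Entpd1 encodes CD39, the ectoenzyme that removes phosphate from extracellular ATP. It was 2542 and 1078 in scurfy mock and 89.8 and 23.9 in Tconv Foxp3, with Treg mock at 451 and 518 and Tconv mock at 394 and 227. Scurfy mock was thus above, and Tconv Foxp3 below, each of those groups (4.69, SE 0.58, adjusted p = 0.0099). Nt5e, the CD73 enzyme that acts after CD39 to make adenosine, was 22.0 and 26.4 in scurfy mock and 9.08 and 13.5 in Tconv Foxp3, against 838 and 720 in Treg mock. Neither incomplete state held Nt5e at the Treg level (difference between the states 0.56, adjusted p = 0.41).

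Secreted products differed as well. Il10 was 834 and 2735 in scurfy mock and 198 and 45.5 in Tconv Foxp3 (3.74, SE 0.64, adjusted p = 0.026). Tconv mock (2173 and 1835) exceeded both Tconv Foxp3 arrays and Treg mock (902 and 774). Ebi3, a subunit of IL-35 and IL-27, was 478 and 716 against 47.3 and 9.17 (3.91, SE 0.64, adjusted p = 0.023), and it too was high in Tconv mock at 384 and 517. Fgl2, a secreted fibrinogen-like suppressor, was 758 and 112 against 0.622 and 7.93 (3.98, SE 0.79, adjusted p = 0.044). S100a4, a calcium-binding protein of memory and effector T cells, was 690 and 228 against 48.9 and 57.2 (2.59, SE 0.46, adjusted p = 0.030). Il10 and Ebi3 were called in 7 of the 10 fits that left out an array, S100a4 in 5 and Fgl2 in 3.

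Of 28 Treg surface and effector molecules, 7 were higher in scurfy mock (Ctla4, Icos, Entpd1, Ebi3, Il10, Fgl2 and S100a4), 0 were lower by limma and 21 did not pass. The median was 0.83, 24 of 28 differences were positive, and 15 genes had an unadjusted p under 0.05, beside 17.4% of all genes. Without Tconv Foxp3 array 2 the count was 0, without array 1 it was 2, and without scurfy mock array 1 or 2 it was 2 or 8. Ctla4 was near the threshold, and its adjusted p was over 0.05 in each of the 10 fits that left out an array (up to 0.364). Itgae (3.25, adjusted p = 0.22), Klrg1 (2.08, adjusted p = 0.11) and Tnfrsf9 (1.14, adjusted p = 0.12) did not pass. Izumo1r, folate receptor 4, was 400 and 2979 in scurfy mock and 4466 and 4579 in Tconv Foxp3 (-2.02, adjusted p = 0.19).

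Receptors for cytokines, chemokines and lipids were among the largest of the higher genes. Il1r2, the decoy receptor that binds IL-1 without signalling, was 2697 and 3197 in scurfy mock and 39.1 and 12.6 in Tconv Foxp3. Treg mock (489 and 593) and Tconv mock (196 and 176) lay between them. Its difference of 6.22 (SE 0.45, adjusted p = 0.00051, limma) ranked at the top of all higher genes. Cxcr6, the receptor for CXCL16, was 3433 and 1485 against 13.3 and 22.3 (6.09, SE 0.40, adjusted p = 0.00033). Both scurfy mock arrays lay above Treg mock (300 and 202), and scurfy Foxp3 was at the scurfy mock level with 2111 and 2247. Both calls were kept without any single array.

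Promoters are shown for the genes with the largest differences in each direction, because the titles of the groups differ in an epigenetic state. The titles do not name DNA methylation, which in mammals falls on CG dinucleotides. The arrays did not measure methylation. RefSeq (GRCm38.p6) held 5 of 6 promoters looked for, and the 250 bases before the start are printed 5′ to 3′ with each CG in capitals. Il1r2 (chr1:40085843-40086092, plus strand) had 14 CG and Cxcr6 (chr9:123806227-123806476, plus strand) had 3, beside a median of 6 in 32851 windows of the same length. Of all windows, 72.7% had at most 14 CG and 37.8% at most 3, so neither count was unusual.
Il1r2: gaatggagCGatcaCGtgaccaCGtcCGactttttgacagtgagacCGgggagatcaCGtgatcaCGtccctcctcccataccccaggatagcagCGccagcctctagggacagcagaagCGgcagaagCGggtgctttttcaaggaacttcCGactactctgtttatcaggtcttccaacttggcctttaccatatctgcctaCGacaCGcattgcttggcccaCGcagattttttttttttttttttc
Cxcr6: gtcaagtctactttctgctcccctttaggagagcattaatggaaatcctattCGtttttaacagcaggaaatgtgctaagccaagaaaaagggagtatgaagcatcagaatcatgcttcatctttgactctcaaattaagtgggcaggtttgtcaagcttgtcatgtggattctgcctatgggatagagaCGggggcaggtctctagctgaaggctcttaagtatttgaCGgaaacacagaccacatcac
The forkhead sequence TGTTTAC, searched on both strands (GTAAACA), was in neither window and in 3.17% of all windows. That says only that these letters are not in these 250 bases.

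Other receptors followed. Cysltr1, a cysteinyl leukotriene receptor, was 2762 and 520 in scurfy mock and 8.28 and 1.36 in Tconv Foxp3 (5.89, SE 1.12, adjusted p = 0.039). Its SE was the widest of the 15 largest higher genes, and the call was lost without scurfy mock array 1 (4.71, adjusted p = 0.17). Ccr1, an inflammatory chemokine receptor, was 232 and 122 against 0.728 and 6.79 (3.25, SE 0.35, adjusted p = 0.0053). Cxcr4, the receptor for CXCL12, was 4236 and 4451 against 822 and 1217 (2.10, SE 0.36, adjusted p = 0.026). Treg mock at 1676 and 3260 was also above Tconv mock at 662 and 573. Of 19 chemokine receptors and homing genes, 3 were higher (Ccr1, Cxcr4 and Cxcr6), 16 did not pass and the median was 1.38. The count was 2 and 6 without scurfy mock arrays 1 and 2, and 1 without either Tconv Foxp3 array. Gpr15, a gut-homing receptor, read 110 and 90.0 against 16.9 and 14.6 (1.87, adjusted p = 0.056).

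Among 23 cytokine receptors 1 was called, Il1r2, and 17 differences were positive with a median of 0.85. Without scurfy mock array 2 there were 4 calls. Il7r, the IL-7 receptor chain that is usually low on Treg, was 4671 and 2426 in scurfy mock and 980 and 735 in Tconv Foxp3. These arrays did not overlap, but the difference of 1.97 (SE 0.43) missed the threshold (adjusted p = 0.059). None of 8 SOCS feedback inhibitors of cytokine signalling was called by limma, with a median of 0.11 and 1 gene at an unadjusted p under 0.05.

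The rest of the 15 largest higher genes had varied functions. Adam19, a membrane metalloprotease, was 1391 and 803 in scurfy mock, 4.34 and 27.5 in Tconv Foxp3 and 621 and 885 in Treg mock (5.17, SE 0.65, adjusted p = 0.010, limma). Tox2, a nuclear protein related to Tox, was 588 and 508 against 1.63 and 22.0 (4.44, SE 0.38, adjusted p = 0.0015). Its call was kept without any single array. Gcnt1, the enzyme that branches core O-glycans on T cells, was 1195 and 296 against 24.3 and 22.7 (3.96, SE 0.53, adjusted p = 0.012). Treg mock, at 287 and 349 for Gcnt1, lay within reach of scurfy mock array 2.

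For some of these genes Tconv mock was on the scurfy mock side. Cyp11a1, which starts steroid synthesis from cholesterol, was 1232 and 1207 in scurfy mock and 1354 and 1147 in Tconv mock, against 137 and 15.7 on the Tconv Foxp3 arrays (4.15, SE 0.61, adjusted p = 0.016). Hormad1, a protein of the meiotic chromosome axis, was 383 and 525 against 0.134 and 0.313 (4.84, SE 0.86, adjusted p = 0.030), with 214 and 274 in Tconv mock. Ifitm3, an interferon-inducible block to virus entry, was 6457 and 4643 against 214 and 238 (4.51, SE 0.61, adjusted p = 0.012). In all 3 the Tconv Foxp3 arrays were the low pair among the 4 arrays and Tconv mock. Ttc39c gave 583 and 883 against 48.2 and 7.35 (4.24, SE 0.60, adjusted p = 0.014). In 6 of the 15 genes both Tconv Foxp3 arrays were under the array median, where adding 16 compresses a difference.

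Without scurfy mock array 1 the calls of Cysltr1, Adam19, Hormad1, Ifitm3, Cyp11a1 and Fgl2 were lost, with adjusted p between 0.0502 (Adam19) and 0.170 (Cysltr1). Leaving out Tconv Foxp3 array 1 or 2 ended the calls of Cysltr1, Adam19, Hormad1, Ifitm3, Rora, Fgl2 and Gcnt1, and those of Entpd1, Ttc39c and Cyp11a1 were lost without array 2 only. Cysltr1, Hormad1 and Fgl2 also lost their calls without either scurfy Foxp3 array, and Hormad1 without scurfy mock array 2 (adjusted p = 0.057). The highest of these adjusted p-values was 0.296 for Cysltr1 without Tconv Foxp3 array 2. Il1r2, Ikzf2, Cxcr6, Foxp3 and Tox2 stayed under the threshold in every fit that left out an array.

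Ipcef1, a partner of cytohesin exchange factors, was high in the cells labelled with Foxp3. It read 799 and 1683 on the Tconv Foxp3 arrays and 32.4 and 68.7 on the scurfy mock arrays, with 43.7 and 25.7 in Tconv mock and 966 and 731 in Treg mock. So Tconv Foxp3 stood with Treg, and scurfy mock stood with Tconv mock (-4.20, SE 0.42, adjusted p = 0.0037, limma). Tconv Foxp3 was above Tconv mock by 4.56 (adjusted p = 0.010). Its other 2 probe sets above the filter differed by -2.84 and -1.67. Without Tconv Foxp3 array 2 the difference was -3.67 (adjusted p = 0.052).

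Hs3st3b1, which adds 3-O-sulfate to heparan sulfate, was 414 and 470 in Tconv Foxp3 and 18.5 and 25.0 in scurfy mock (-3.60, SE 0.26, adjusted p = 0.00051). Unlike Ipcef1, it was low in Treg mock (38.9 and 30.5), and Tconv mock was intermediate at 98.1 and 115. It was the only lower gene among the named ones that kept its call without any single array and under the other settings tried. In the list of heparan sulfate synthesis genes 10 passed the filter on low values, with Hs3st3b1 the single call and a median of -0.22. Its other 2 probe sets above the filter had differences of -1.33 and -0.69, of the same sign but not called.

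Il2, the T cell growth factor that Foxp3 is known to repress, was 254 and 1298 in Tconv Foxp3 and 6.96 and 14.8 in scurfy mock. Tconv mock (11.3 and 101) and Treg mock (18.4 and 77.9) were nearer to scurfy mock. The Il2 difference of -4.49 (SE 0.86, adjusted p = 0.040) was the largest on the lower side, yet its call was lost when any of the 4 compared arrays was left out, with adjusted p up to 0.311 without Tconv Foxp3 array 2. Ifng, the Th1 cytokine, overlapped at 356 and 1861 in scurfy mock and 179 and 519 in Tconv Foxp3 (1.37, SE 0.85, adjusted p = 0.46). Pde3b, a phosphodiesterase that Foxp3 is known to repress, overlapped as well at 2510 and 445 against 386 and 739 (0.97, SE 0.89, adjusted p = 0.64). Among 7 genes known to be repressed by Foxp3, 1 was lower in scurfy mock (Il2), 6 did not pass, and the median was 0.97. It was 0.28 without scurfy mock array 2, and 0.51 and 1.42 without Tconv Foxp3 arrays 1 and 2.

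Promoter windows of the lower genes are shown for the same reason. Il2 (chr3:37125955-37126204, minus strand) had 2 CG, and Ipcef1 (chr10:6980282-6980531, minus strand, the first of 3 annotated starts) had 4. Of all windows, 29% had at most 2 CG and 44.4% at most 4.
Il2: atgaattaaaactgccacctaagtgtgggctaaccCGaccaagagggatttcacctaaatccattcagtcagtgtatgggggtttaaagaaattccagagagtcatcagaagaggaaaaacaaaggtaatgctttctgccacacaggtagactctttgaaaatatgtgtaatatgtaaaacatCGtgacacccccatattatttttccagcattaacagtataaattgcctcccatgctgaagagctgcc
Ipcef1: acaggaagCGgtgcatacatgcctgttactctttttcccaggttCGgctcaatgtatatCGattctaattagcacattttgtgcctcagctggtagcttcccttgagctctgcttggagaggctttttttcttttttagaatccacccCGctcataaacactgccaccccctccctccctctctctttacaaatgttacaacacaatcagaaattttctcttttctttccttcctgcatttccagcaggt
Neither window held TGTTTAC on either strand. The remaining matched gene, Hivep3, had 9 CG and no match to it.

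Genes induced by T cell receptor (TCR) signals were among those higher in Tconv Foxp3. Egr3, an early zinc finger factor that restrains activation, was 789 and 1530 in Tconv Foxp3 and 52.3 and 134 in scurfy mock (-3.46, SE 0.55, adjusted p = 0.021). Myc, the driver of growth metabolism, was 1423 and 1520 against 191 and 393 (-2.35, SE 0.37, adjusted p = 0.019). Dusp2, a phosphatase of MAP kinases, was 403 and 458 against 96.3 and 175 (-1.60, SE 0.32, adjusted p = 0.044). For Egr3 and Myc, Tconv mock (520 and 435, and 901 and 919) lay between the compared groups. Of the 10 fits that left out an array, Dusp2 was called in 1 (adjusted p up to 0.338), and Egr3 and Myc in 7 each.

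The early-gene list did not move as a whole. Of 28 measured, 3 were lower in scurfy mock (Egr3, Myc and Dusp2), 1 was higher (Ier3) and 24 did not pass, with a median of -0.14. Calls numbered 0 when scurfy mock array 1 or a Tconv Foxp3 array was dropped, and 8 when scurfy mock array 2 was. Nr4a3, a nuclear receptor of early activation, was 2.61 and 181 in scurfy mock against 707 and 1395 in Tconv Foxp3 (-4.06, adjusted p = 0.059). Egr2 had the scurfy mock arrays far apart at 160 and 3185, against 3945 and 4935 (-2.56, adjusted p = 0.25). Of 25 TCR signalling genes, Cblb, a ubiquitin ligase that limits TCR signals, was lower in scurfy mock (-1.94, SE 0.39, adjusted p = 0.044), and the median was -0.03. The Cblb call was lost in all 10 fits that left out an array.

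Other genes higher in Tconv Foxp3 were mostly outside the lists. Ephx1, microsomal epoxide hydrolase, was 18.6 and 60.3 in scurfy mock, 712 and 873 on the Tconv Foxp3 arrays and 570 and 414 in Treg mock (-3.97, SE 0.42, adjusted p = 0.0053). Hivep3, a large zinc finger protein, was 1479 and 2047 against 45.0 and 176 (-4.02, SE 0.70, adjusted p = 0.028). Pros1, the anticoagulant protein S that also bridges TAM receptors to dying cells, was 2781 and 3766 against 465 and 373 (-2.91, SE 0.35, adjusted p = 0.0094). Tconv mock was intermediate for Pros1 at 1347 and 1519.

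The remaining genes of the 15 largest on this side were Dgkk, Snhg3, Edn1, Clec2i, Ptpn5, Npas2 and Fam71b, between -3.32 and -2.82. Dgkk, a diacylglycerol kinase, was 343 and 183 in Tconv Foxp3, 0.139 and 28.3 in scurfy mock, 785 and 1328 in Tconv mock and 0.548 and 7.45 in Treg mock. It thus separated the groups that started as GFP- from the others. In 3 of the 15 genes both scurfy mock arrays were under the array median. Hivep3, Bach2, Egr3, Dgkk, Snhg3, Edn1, Clec2i, Ptpn5, Npas2 and Fam71b all lost their calls without scurfy mock array 1, with adjusted p between 0.0502 (Ptpn5) and 0.126 (Hivep3). Of the 15, all except Hs3st3b1 lost their calls without Tconv Foxp3 array 2, and all except Hs3st3b1, Ipcef1 and Ephx1 without array 1, with adjusted p up to 0.311 (Il2).

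Over the 30 genes of both sides, 18 had further probe sets above the filter, 31 in all. The 31 had the same sign as the probe set reported, and 24 of them were called. Sizes could differ greatly. The other Egr3 probe set gave -0.59 (adjusted p = 0.59, limma), against -3.46 for the one reported. For Hivep3, reported at -4.02, the others gave -1.91, -0.10 and -4.12 (adjusted p = 0.15, 0.96 and 0.036).

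Genes of naive and memory T cells included the called transcription factors Bach2 and Foxp1. Foxp1, a forkhead factor of quiescent T cells, was 271 and 440 in scurfy mock, 1699 and 2870 on the Tconv Foxp3 arrays and 1415 and 1790 in Treg mock (-2.62, SE 0.45, adjusted p = 0.027, limma). Of 13 measured genes these 2 were lower and 11 did not pass, with a median of -0.90. Ccr7, the lymph node homing receptor, was 224 and 1787 in scurfy mock and 2078 and 2719 in Tconv Foxp3 (-1.86, adjusted p = 0.28). Dropping scurfy mock array 1 or a Tconv Foxp3 array left 0 calls, and dropping scurfy mock array 2 gave 4.

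Since the titles name an epigenetic state, the enzymes of DNA methylation were examined. Dnmt3a, the de novo methyltransferase, was 484 and 504 in scurfy mock, 1714 and 1821 in Tconv Foxp3, 929 and 933 in Treg mock and 1563 and 1262 in Tconv mock. The GFP+ groups with empty vector were thus below both GFP- groups by value. The Dnmt3a difference of scurfy mock from Tconv Foxp3 was -1.81 (SE 0.25, adjusted p = 0.014, limma). Dnmt3b, its relative, was 50.9 and 7.75 against 139 and 197 (-2.19, adjusted p = 0.053). Dnmt1, the maintenance methyltransferase, was 1853 and 2048 against 2085 and 2522 (-0.23, adjusted p = 0.82), and Uhrf1, which guides it, gave -0.32 (adjusted p = 0.68). Tet2, a demethylating dioxygenase, gave 0.45 (adjusted p = 0.72). Of 15 such genes 1 was lower, 14 did not pass and the median was -0.23. The Dnmt3a difference was between -1.85 and -1.76 with any array left out, but the call was lost without scurfy mock array 1 (adjusted p = 0.069) and without either Tconv Foxp3 array (adjusted p = 0.095 and 0.17).

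**Figure D3:**
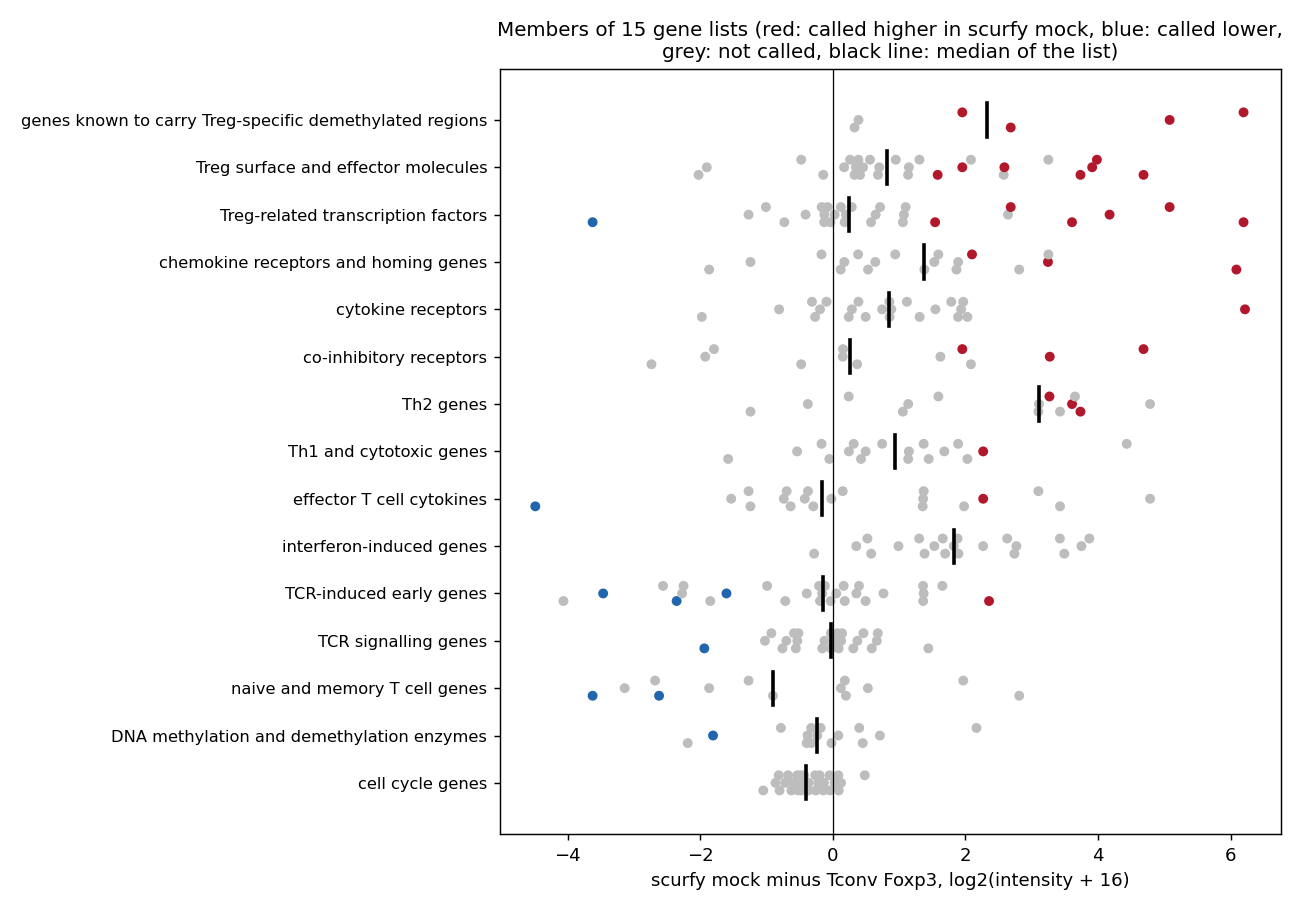
Log2 difference (scurfy mock minus Tconv Foxp3) of each measured member of 15 gene lists, with called genes in red (higher) or blue (lower), others in grey, and the median of each list as a black line. Th2 genes have the highest median (3.11) and naive and memory T cell genes the lowest (-0.90).

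Helper T cell programs were compared next. Of 14 Th2 genes 3 were higher in scurfy mock (Il10, Maf and Pparg), and the median was 3.11. Pparg, a lipid-sensing nuclear receptor, was 275 and 286 in scurfy mock and 320 and 623 in Tconv mock, against 16.6 and 13.0 on the Tconv Foxp3 arrays (3.27, SE 0.36, adjusted p = 0.0054). The Th2 cytokines did not pass. Il13 was 1423 and 5227 against 60.6 and 114 (4.78, SE 1.30, adjusted p = 0.11), and Il4 was 308 and 4093 against 37.0 and 325 (3.10, SE 1.64, adjusted p = 0.38). Their scurfy mock arrays differed greatly, with array 2 the higher, and the list median was 1.35 without that array. Calls in the list were 2 and 4 without scurfy mock arrays 1 and 2, and 2 and 0 without Tconv Foxp3 arrays 1 and 2.

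Th1 and cytotoxic genes had 1 call among 18, the chemokine Ccl5 at 448 and 348 against 82.0 and 58.2 (2.27, SE 0.40, adjusted p = 0.028), and a median of 0.94. There were 5 calls without scurfy mock array 2 and 0 without any other of the 4. Tbx21, the Th1 master factor T-bet, was 262 and 688 in scurfy mock against 1456 and 1169 (-1.58, adjusted p = 0.12). Of 20 effector T cell cytokines Ccl5 was higher and Il2 lower, with a median of -0.16 that was 1.04 without scurfy mock array 1 and -0.61 without array 2. Th17 genes had 1 call among 10, Rora, and a median of 0.27. Both cytokine calls were lost without scurfy mock array 1 or either Tconv Foxp3 array, and Rora without either Tconv Foxp3 array.

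Follicular helper genes gave Icos and Tox2 higher and Tox lower among 13, with a median of -0.02 that was 0.84 without scurfy mock array 1 and -0.49 without array 2. Tox, a nuclear factor of chronically stimulated and of regulatory T cells, was 270 and 465 in Tconv Foxp3, 45.6 and 79.2 in scurfy mock, 838 and 722 in Treg mock and 41.2 and 45.0 in Tconv mock (-2.28, SE 0.34, adjusted p = 0.016). Tox and Tox2 were therefore called in opposite directions. Of 12 co-inhibitory receptors Ctla4, Entpd1 and Havcr2 were higher. Havcr2, the receptor TIM-3, was 157 and 490 against 14.0 and 15.1 (3.27, SE 0.54, adjusted p = 0.023), and the list median was 0.26. Pdcd1, the receptor PD-1, overlapped at 179 and 662 against 217 and 441 (0.15, adjusted p = 0.95). Follicular helper genes had 6 calls without scurfy mock array 2 and 1 without any other of the 4 arrays. Co-inhibitory receptors had 2 and 5 calls without scurfy mock arrays 1 and 2, and 1 and 0 without Tconv Foxp3 arrays 1 and 2.

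To place the called genes, each was set beside the other groups. Of the 122 higher genes, the Treg mock mean was nearer to scurfy mock in 79 (64.8%). This compares with 50.2% of all genes in which scurfy mock was higher. Tconv mock was nearer to Tconv Foxp3 in 88 (72.1%, against 76% of all such genes), and scurfy Foxp3 was nearer to scurfy mock in 117 (95.9%, against 59.7%). Of the 67 lower genes, Treg mock was nearer to scurfy mock in 41 (61.2%, against 65.2% of all genes in which scurfy mock was lower), and scurfy Foxp3 in 61 (91%, against 68.3%). Tconv mock was nearer to Tconv Foxp3 in 31 of the 67 (46.3%), against 26.7% of all genes with scurfy mock lower. These shares are descriptions beside their background and carry no test. The called genes were chosen for a large gap between the same means that nearness is judged by, unlike the background genes. That choice alone can move the shares away from the background. Among the 15 largest on each side, Treg was nearer to scurfy mock in 10 higher and 8 lower genes.

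Each side was also set against Tconv mock. The contrasts use the same Tconv mock arrays, so their values are only given side by side. They also reuse the scurfy mock and Tconv Foxp3 arrays by which the 122 and 67 genes were chosen. That choice alone raises the shares called and the sizes of the medians below. Of the 122 higher genes 40 were called between scurfy mock and Tconv mock, where 0.574% of all genes were, and their median was 1.79. Between Tconv Foxp3 and Tconv mock 3 were called (Ier3, Lgals3 and Pparg), beside 0.0883% of all genes, with a median of -0.82. Of the 67 lower genes 5 and 4 were called, with medians of -1.01 and 1.12, and the 4 in Tconv Foxp3 were Hs3st3b1, Ipcef1, Qser1 and Tox. Lgals3, a carbohydrate-binding lectin, was 900 and 595 in scurfy mock, 1477 and 678 in Tconv mock and 75.2 and 55.0 on the Tconv Foxp3 arrays. Tconv Foxp3 had its lowest values of the 5 groups (Tconv Foxp3 minus Tconv mock -3.66, adjusted p = 0.033, limma). Qser1 was 28.2 and 14.0 in scurfy mock, 81.7 and 110 on the Tconv Foxp3 arrays and 163 and 168 in Treg mock, above 5.56 and 5.88 in Tconv mock.

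Genes that mark natural Treg were then taken from the difference between Treg mock and Tconv mock. The group means of that contrast come from other arrays, but all 10 arrays were fitted together, so the calls of both contrasts share 1 estimate of each gene's spread. In it 127 of 11321 genes were called (1.12%), 104 higher (0.919%) and 23 lower (0.203%). Of the 104 genes higher in Treg, 22 (21.2%) were called higher in scurfy mock, 3 (2.88%) were called higher in Tconv Foxp3, and 79 did not pass between the states. The background is 1.08% and 0.592% of all genes. Their median difference was 0.37, beside -0.04 for all genes, and 46 (44.2%) did not overlap with scurfy mock higher, where 22.7% of all genes did so. In 21 (20.2%) Tconv Foxp3 was higher without overlap, beside 29.3% of all genes.

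The 22 Treg genes called higher in scurfy mock than in Tconv Foxp3 were Ikzf2, Cxcr6, Adam19, Foxp3, Rora, Gcnt1, Syp, Flicr, Sdc4, Myo1e, Zc3h12c, Osbpl3, Ikzf4, Ppp1r3f, S100a4, Sgk1, Pfn2, Cxcr4, Cpe, Nav2, Pls3 and Tiam1. Foxp3 is counted among them although the sort on GFP separated the groups by its promoter. Osbpl3, S100a4 and Sgk1 were not called between scurfy mock and Tconv mock (adjusted p = 0.064, 0.13 and 0.14, limma). Flicr, a noncoding RNA transcribed beside Foxp3, was 570 and 505 in scurfy mock, 36.0 and 33.5 in Tconv Foxp3 and 1500 and 1243 in Treg mock (3.45, SE 0.30, adjusted p = 0.0015). Scurfy mock was between the low groups and Treg for this gene, and its call was kept without any single array. Cpe, carboxypeptidase E, was 55.0 and 74.9 in scurfy mock and 5.54 and 1.96 in Tconv Foxp3, far under the 2178 and 1488 of Treg mock (2.03, SE 0.31, adjusted p = 0.018). Sgk1, a kinase of salt sensing, was 581 and 371 against 83.5 and 61.4, with 683 and 688 in Treg mock (2.45, SE 0.44, adjusted p = 0.029). The 3 Treg genes called higher in Tconv Foxp3 than in scurfy mock were Ipcef1, Tox and Qser1.

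**Figure D4:**
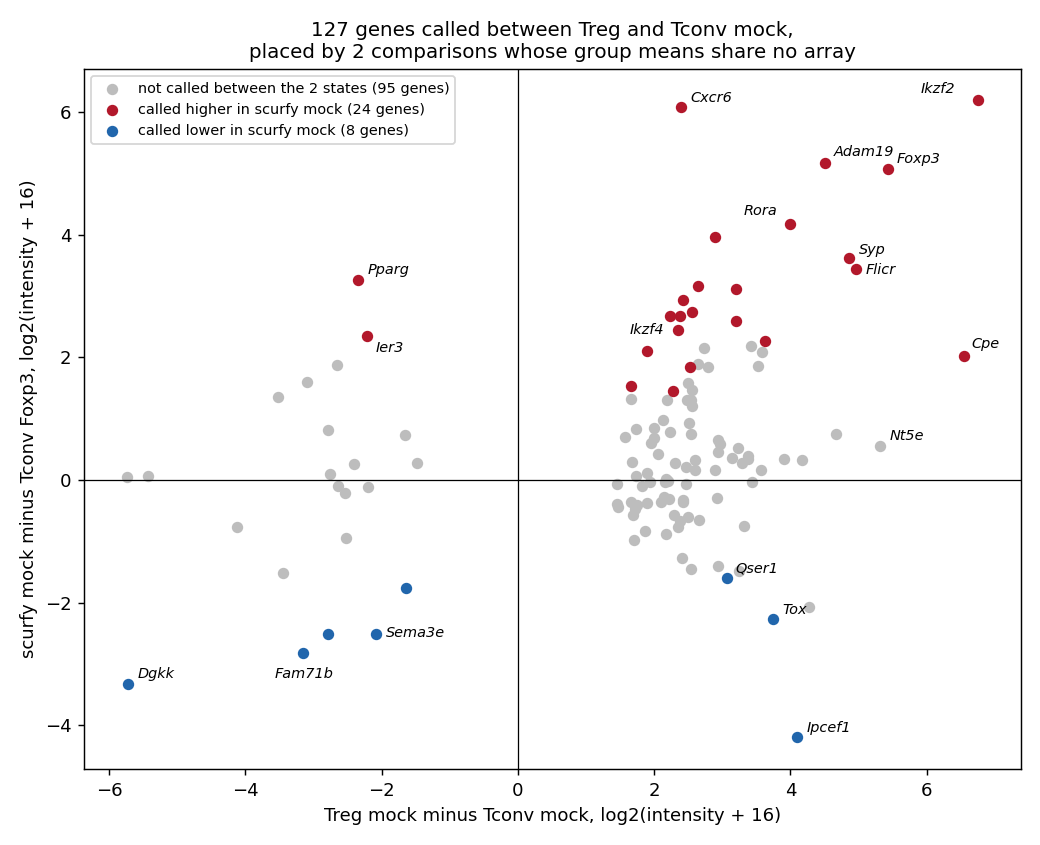
The 127 genes called between Treg mock and Tconv mock, placed by that log2 difference (horizontal axis) and by scurfy mock minus Tconv Foxp3 (vertical axis), whose means come from other arrays but whose calls share the spread estimate of the fit. Of the genes, 24 are red (called higher in scurfy mock), 8 blue (called lower) and 95 grey, with Ikzf2 at the upper right and Ipcef1 at the lower right.

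Of the 23 genes lower in Treg, Dgkk, Fam71b, Lipg, Rnd3 and Sema3e were lower in scurfy mock than in Tconv Foxp3, Ier3 and Pparg were higher, and 16 did not pass, with a median of 0.06. Sema3e, a secreted guidance protein, was 18.0 and 7.18 in scurfy mock, 169 and 121 in Tconv Foxp3, 42.3 and 33.3 in Treg mock and 209 and 215 in Tconv mock (-2.51, SE 0.33, adjusted p = 0.012). It was low in cells sorted as GFP+ with empty vector and high in both GFP- groups. Other genes of natural Treg did not separate the states. Grp, gastrin-releasing peptide, was 551 and 1435 in Tconv mock and between 1.58 and 15.5 on the 4 compared arrays, and Nrp1, a semaphorin receptor, was 99.9 and 146 against 84.3 and 132 (0.17, adjusted p = 0.89).

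The 22 shared calls depended on single arrays. In each of these fits the genes of natural Treg were called again, so the counts reflect changes in that list as well. They numbered 13 without scurfy mock array 1, 35 without array 2, 4 and 3 without Tconv Foxp3 arrays 1 and 2, 7 without Treg mock array 2, and 10 and 5 without Tconv mock arrays 1 and 2. The 3 calls in the other direction numbered 9 without scurfy mock array 2, and 1 and 0 without Tconv Foxp3 arrays 1 and 2. Among genes lower in Treg, the 5 calls lower in scurfy mock numbered 1 without scurfy mock array 1, 8 without array 2 and 0 without either Tconv Foxp3 array. They numbered 3 without either scurfy Foxp3 array, 2 and 1 without Treg mock arrays 1 and 2, and 1 without either Tconv mock array. The 2 calls higher in scurfy mock numbered between 0 and 3 over these fits. The median of the genes lower in Treg went from -0.77 without Tconv mock array 2 to 1.87 without Treg mock array 2. Neither array enters the compared means, so the list changed there while the differences did not. The sign of this median thus depended on which genes were listed.

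Interferon-induced genes differed between replicates of the scurfy groups. Of 21 measured, 20 differences were positive with a median of 1.83, but 0 were called by limma and 13 had an unadjusted p under 0.05. Their mean level over 23 genes was 9.39 and 6.80 on scurfy mock arrays 1 and 2 and 6.37 and 6.28 on Tconv Foxp3, on the log2(intensity + 16) scale. The scurfy Foxp3 arrays were at 8.71 and 7.48, Tconv mock at 6.64 and 6.55 and Treg mock at 6.37 and 7.39. Scurfy mock array 1 was the highest of the 10, with Ifit1 at 2136 and 35.9 on the scurfy mock arrays. Without array 1 the median was 0.60. Without array 2 it was 2.93 and 11 genes were called. The part of this signal in the difference of Ifitm3 (6457 and 4643 on the scurfy mock arrays) was not tested.

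**Figure D5:**
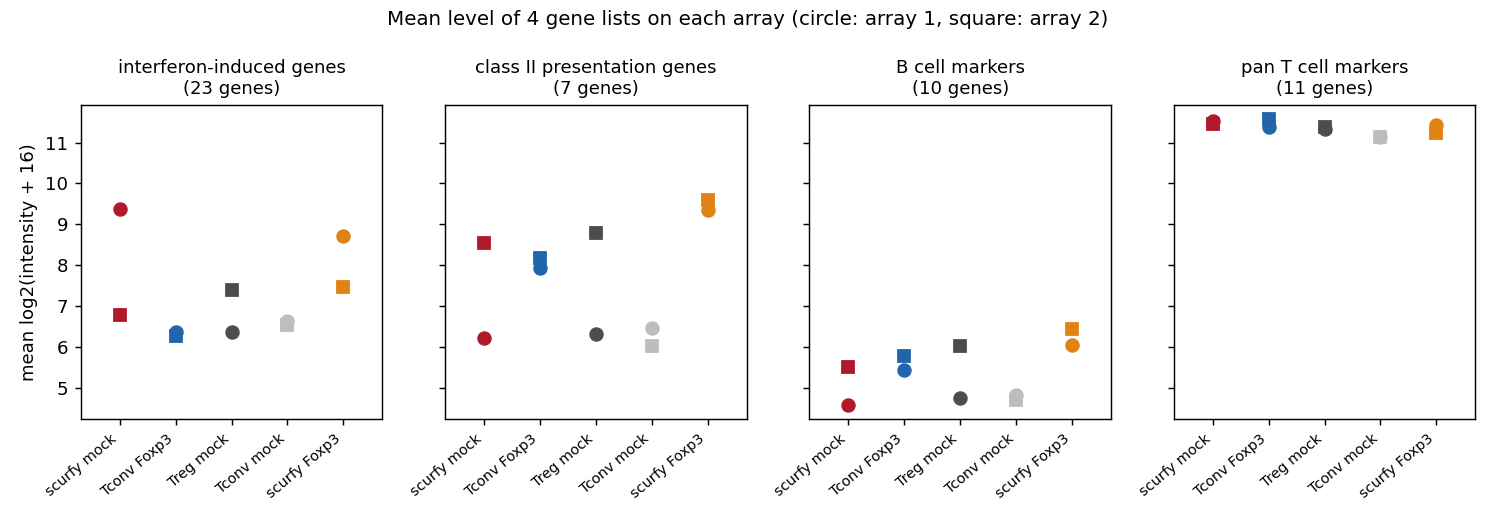
Mean level, log2(intensity + 16), of 4 gene lists on each of the 10 arrays, circles for array 1 and squares for array 2 of each group. Scurfy mock array 1 is high for interferon-induced genes (9.39) and low for class II presentation genes (6.24), while pan T cell markers lie between 11.1 and 11.6 on all arrays.

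Genes of antigen presentation differed between arrays in the opposite way. Class II presentation genes had a mean of 6.24 and 8.55 on scurfy mock arrays 1 and 2 and 7.93 and 8.17 on Tconv Foxp3, with H2-Aa at 0.397 and 412 in scurfy mock. The median difference of 6 such genes was -0.84, and it was 0.57 without array 1 and -2.45 without array 2. B cell markers had means of 4.60 and 5.52 against 5.44 and 5.79, and all 8 measured differences were negative with a median of -0.60 (-0.19 without scurfy mock array 1, -1.14 without array 2). Cd79a was 4.50 and 73.5 in scurfy mock and 52.8 and 89.2 in Tconv Foxp3. None of the B cell, class II, CD8 T cell, NK cell, myeloid, mast cell or red blood cell markers was called by limma, and 0 of them had an unadjusted p under 0.05. Without scurfy mock array 2, 1 B cell marker and 1 NK cell marker were called. Lists for CD8 T cells, NK cells, myeloid cells, mast cells and red blood cells had means between 4.19 and 6.08 on the 4 compared arrays, where an intensity of 0 would give 4. The part of such cells in the differences above was not tested.

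Growth and metabolism lists held few or no calls. Of 30 cell cycle genes 25 were lower in scurfy mock by value, with a median of -0.40. In 20 of the 30 the groups did not overlap, with scurfy mock lower, a larger share than the 29.3% of all genes. None was called by limma and 5 had an unadjusted p under 0.05, and Mki67, a proliferation marker, overlapped at 3691 and 3615 against 3638 and 3928. Glycolysis genes had a median of 0.07 with 0 of 17 called (2 at an unadjusted p under 0.05). For cholesterol synthesis 0 of 17 genes were called (1 at an unadjusted p under 0.05), and the median of 0.04 was -0.62 without scurfy mock array 1 and 0.73 without array 2. Of 19 amino acid stress genes Nupr1, a stress-induced nuclear protein, was higher at 119 and 97.3 against 3.18 and 1.42 (2.76, SE 0.36, adjusted p = 0.012), and the list median was 0.20. The Nupr1 call was lost without scurfy mock array 1 (adjusted p = 0.059) and without either Tconv Foxp3 array (adjusted p = 0.077 and 0.13), and the list had 3 calls without scurfy mock array 2.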

How the data were processed

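RNA of 10 samples was hybridised to Affymetrix Mouse Genome 430 2.0 arrays after NuGEN amplification. The deposited values are a linear intensity per probe set, made by the authors with Affymetrix Expression Console, per the submitters' processing notes. Its version, and how probe sets were summarised and scaled, were not given in the sources used here. Groups came from the sample titles, 5 of 2 arrays.

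Of 45101 probe sets, 64 were controls, 34945 had 1 gene symbol in the platform annotation, 932 several and 9160 none. For each of 18193 genes the brightest probe set (mean of the 10 arrays) was used, and 11321 genes exceeding the median of at least 2 arrays were tested. No detection calls were used. Intensities were taken as log2 after adding 16, without further normalization. limma 3.58.1 in R 4.3.3 (lmFit, eBayes) was fitted over all 10 arrays and 5 groups, with 5 residual and 4.07 prior degrees of freedom and a prior SD of 0.343. p-values are two-sided with Benjamini-Hochberg adjustment over all genes, with calls at an adjusted p under 0.05. The number of arrays limits the precision.

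On simulated data for scurfy mock against Tconv Foxp3 (11321 genes), the fit recovered 6 of 67 changes of 1 log2 unit, 56 of 67 changes of 2 units and 62 of 66 changes of 3 units. There were 9 false among 133 calls and 1 call where nothing changed. The simulated noise was independent between genes and had the same spread in all groups. In the data 14.2% of genes differed by over 1 log2 unit between the scurfy mock arrays and 4.35% between the Tconv Foxp3 arrays. These rates therefore need not hold for the real comparison.

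Named genes were the 15 largest called genes in each direction (clone names left out), a fixed set of Treg genes, and, in 31 gene lists, every called member and up to 4 with the smallest p, together with the largest genes of Treg mock against Tconv mock. Genes outside that rule (among them Nrp1, Itgae, Egr2, Nr4a3, Dnmt1, Sgk1, Lgals3, Sema3e and Qser1) were named after their values were seen. The members and lists were chosen with earlier results of these data known. Promoter windows came from RefSeq (GRCm38.p6), without the 50 bases after the start. Alternatives covered normalization, pseudocount, filter, probe sets, eBayes options, array weights, the groups fitted, a block for replicate number, and each array dropped in turn.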

Additional observations from a re-analysis of the deposited data

How the results depend on the processing

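Of 189 calls between scurfy mock and Tconv Foxp3, 171 were shared after quantile normalization (273 calls). A common 75th percentile gave 304 calls, a pseudocount of 1 gave 82, no filter 95, each probe set 290, trend and robust options 294, array weights 291 and the compared groups alone 26. Leaving out each array gave between 7 and 428. Treg mock against Tconv mock had 127 calls, with 192 after quantile normalization, 206 when 75th percentiles were equalised, 56 at a pseudocount of 1, 54 without a filter, 281 for each probe set, 200 with trend and robust options, 223 with array weights and 26 in the compared groups alone. Leaving out each array gave between 17 and 219 there. A lone array of a group was assumed to vary like the other groups. The cause of these shifts was not tested.

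Deviations of same-numbered arrays correlated between -0.168 and 0.182 over pairs of groups. With 2 arrays per group, these values cannot show whether arrays of the same number shared animals or cultures. With the replicate block there were 153 calls between scurfy mock and Tconv Foxp3, 144 of them shared, and 83 between Treg mock and Tconv mock. Cysltr1, Dusp2, Fgl2, Icos and Id2 were not called with the block. Leaving out 1 of the 4 compared arrays also took the list median from -0.05 to 0.98 for co-inhibitory receptors, 0.06 to 0.74 for Th17 genes, -0.19 to 0.49 for amino acid stress genes and -1.50 to -0.41 for naive and memory T cell genes.

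No named difference that was called changed sign under any setting. Of 54 named called genes, 7 (Cxcr6, Flicr, Foxp3, Hs3st3b1, Ikzf2, Il1r2 and Tox2) kept the call in all fits. In the settings other than leaving out an array, which include the compared groups alone, 11 kept it throughout. Among these 11, Nupr1 was tested in 11 of the 12 settings. Signals under the array median limit the size of a difference.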
